A study of Mus musculus and Rattus norvegicus with 33 samples.

Results

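Collagen chains are the subunits of the main structural proteins of the muscle's connective tissue, and each is the product of its own gene. They were taken as the gene symbols made of Col, a type number, the letter a and a chain number. This gave 44 chains in the mouse table and 26 in the rat table, all 26 of them also in the mouse table, out of 22273 gene symbols in the 2 tables together. A chain was tested where it reached 1 CPM (reads of a gene, scaled to a common library total of 1e+06) in at least 2 libraries of its species, which held for 33 chains in mice and 17 in rats, all 17 also tested in mice. The other 11 mouse and 9 rat chains fell under this limit and are given by their range only.

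RNA was sequenced from the tibialis anterior, the shin muscle that lifts the foot, of wild-type (WT) mice and rats whose leg nerve was driven by an implanted, wirelessly programmed stimulator. Of the trained mouse legs, 2 had been trained for 2 days, 3 for 10 days and 3 for over 17 days, and 9 contralateral legs of mice were set against them. The trained rat legs came from 30 days of training given daily (n = 2) or every 3 days (n = 3), and these were set against 3 legs labelled as sham surgery and 8 contralateral legs. The labels give 1 hour between exercise and sampling for trained legs, and no time for the others. Left legs (TAL) were trained or sham-operated and right legs (TAR) were contralateral, each named with its animal's number. Leg TAR348 is the contralateral leg of a mouse whose left leg was not analysed here. No mouse leg was labelled as sham, so in mice the effects of surgery and of body side cannot be told apart from that of training. For sham legs only surgery is labelled, not whether a device was present. Comparisons with contralateral legs of a species share those legs and are not independent of each other. Estimated depth was 26.4 to 43.0 M reads (M, 1e+06) in mice, and in rats it was 11.6 to 27.9 M reads apart from contralateral leg TAR299 at 4.86 M reads. All p-values measure the spread between legs, many of which are pairs from 1 animal.

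Every collagen molecule is built from 3 chains wound into a triple helix. Fibrillar collagens (types I, III, V and XI among others) form the load-bearing fibrils of the sheaths around muscle fibres, and in muscle they are made mainly by fibroblasts and fibro-adipogenic cells. Type IV forms the sheet-like network of the basement membrane that wraps each muscle fibre and capillary, with types XV and XVIII linked to it. Type VI forms beaded filaments next to that membrane, and loss of its chains causes muscular dystrophy in humans. FACIT collagens (fibril-associated collagens with interrupted triple helices, such as types IX, XII and XIV) sit on the surface of fibrils.

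Collagen chains took up a larger share of the library in trained legs than in contralateral or sham legs of the same species. Their summed level was 1495 to 1772 CPM after 2 days, 1397 to 3750 CPM after 10 days and 1419 to 4694 CPM after over 17 days of training in mice, against 493 to 1315 CPM in contralateral legs. No trained mouse leg fell within the contralateral range. In rats the sum was 1874 to 2242 CPM with daily training and 1194 to 3164 CPM with training every 3 days, against 454 to 926 CPM in sham legs and 553 to 1085 CPM in contralateral legs. A rise in CPM in whole muscle can come from more cells of a type or from more RNA per cell, and these cannot be told apart here. The highest sums belonged to leg TAL337 (over 17 days), leg TAL340 (10 days) and rat leg TAL295 (every 3 days), and each group's other legs lay well below. Leg TAR340, from the same mouse as TAL340, had the highest sum among the contralateral legs.

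**Figure D1:**
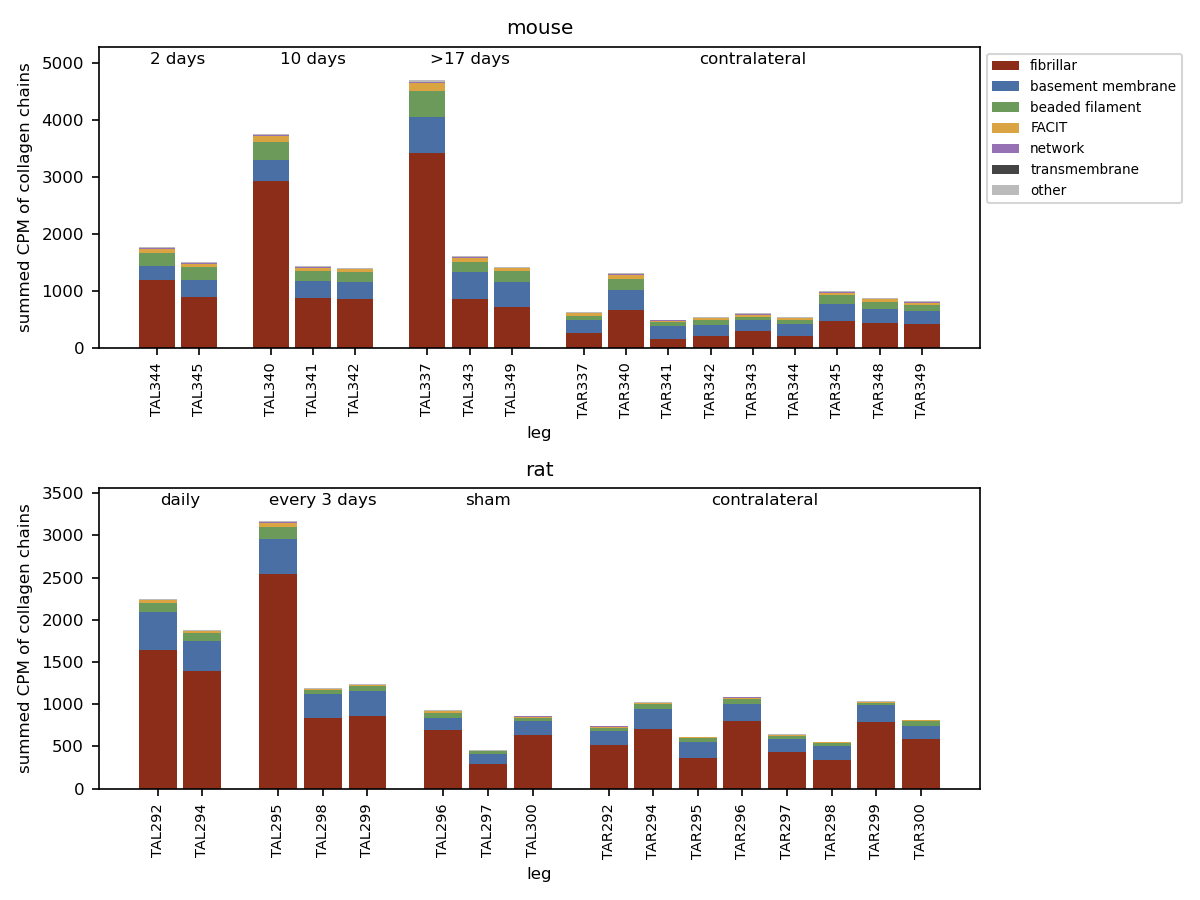
Summed CPM of the collagen chains in each leg, stacked by class, for mice (top) and rats (bottom), with legs grouped by training. In mice, trained legs lie at 1397 to 4694 CPM and contralateral legs at 493 to 1315 CPM, and the fibrillar part (dark red) takes 50.6 to 78.1% of the stack in trained mouse legs and 31.9 to 51.9% in contralateral mouse legs.

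The make-up of that sum was compared by class, without a test. Fibrillar chains made up 58.9 and 67.0% of the collagen CPM after 2 days, 60.9 to 78.1% after 10 days and 50.6 to 73.0% after over 17 days, against 31.9 to 51.9% in contralateral mouse legs. Basement membrane chains made up 14.2 and 20.6%, 9.91 to 21.3% and 13.3 to 30.7% of it in the same trained groups, against 26.7 to 45.3% in contralateral legs. For both classes only the legs of over 17 days overlapped with contralateral mouse legs. In rats the fibrillar share was 73.3 and 74.2% with daily training and 69.1 to 80.3% with training every 3 days, against 64.7 to 75.0% in sham and 59.8 to 75.5% in contralateral legs, so the rat groups overlapped. The rat table held fewer basement membrane and type VI chains (Col4a2, Col6a1 and Col6a3 were not analysed in rats), so these shares are not comparable between species.

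Per kilobase of gene model, a scale that allows levels of genes to be compared, Col1a2, an alpha chain of type I collagen, had the highest mean in contralateral mouse legs, at 22.0 ± 10.3 CPM per kb (SD, n = 9). Col4a1, Col3a1, Col4a2 and Col1a1 followed at 16.2 ± 3.89, 15.5 ± 7.98, 15.4 ± 3.57 and 13.4 ± 6.95 CPM per kb (SD, n = 9 each). The ranges of mean ± SD of these chains, Col1a2 included, overlapped, though the mean of Col1a2 lay above those of Col4a1, Col4a2 and Col1a1. In contralateral rat legs Col3a1, the only chain of type III collagen, led at 54.8 ± 17.4 CPM per kb (SD, n = 8). Col1a2, Col1a1 and Col4a1 came next in rats at 24.4 ± 8.84, 20.8 ± 7.99 and 18.5 ± 2.99 CPM per kb (SD, n = 8 each). Their ranges of mean ± SD overlapped, though the mean of Col1a2 lay above the range of Col4a1.

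Tests were made on log2(CPM + 0.5) with limma across all genes of a species, and a chain was called where the Benjamini-Hochberg adjusted p over all genes tested was under 0.05. Log2 changes are on that scale, on which the 0.5 makes changes of low genes look smaller than they are. After 2 days of training 3 of the 33 mouse chains (9.09%) were called higher, near the 7.32% of all genes tested, and 0 lower, against 2.4%. After 10 days 6 chains were called higher, against 3.61% of all genes, and 1 lower (3.03%), near the 1.92% of all genes. After over 17 days 16 chains were called higher, against 6.3% of all genes, and 1 lower (3.03%), near the 2.48% of all genes. The chain called lower, Col9a1, reached 1 CPM in contralateral legs only. Col4a5, called higher after over 17 days, reached it in trained legs only. Neither call is taken as support for these counts. The median log2 change of the 33 chains was 0.48, 0.59 and 1.03 at the 3 lengths of training, beside 0.11, 0.03 and 0.05 for all genes. Leaving out 1 leg moved these counts. At 2 days the number called was 0 without TAL344, 1 without TAL345, TAR341, TAR342, TAR343, TAR344 or TAR349, 5 without TAL340, 9 without TAR340 and 11 without TAL337. At 10 days it was 2 without TAL340 and 14 without TAL337 or TAR340, and after over 17 days it was 6 without TAL337. Scaling by median of ratios moved the median of all genes at 2 days to about 0 (-0.003), a shift of more than 0.1, and with it the chains' median there was 0.38.

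**Figure D2:**
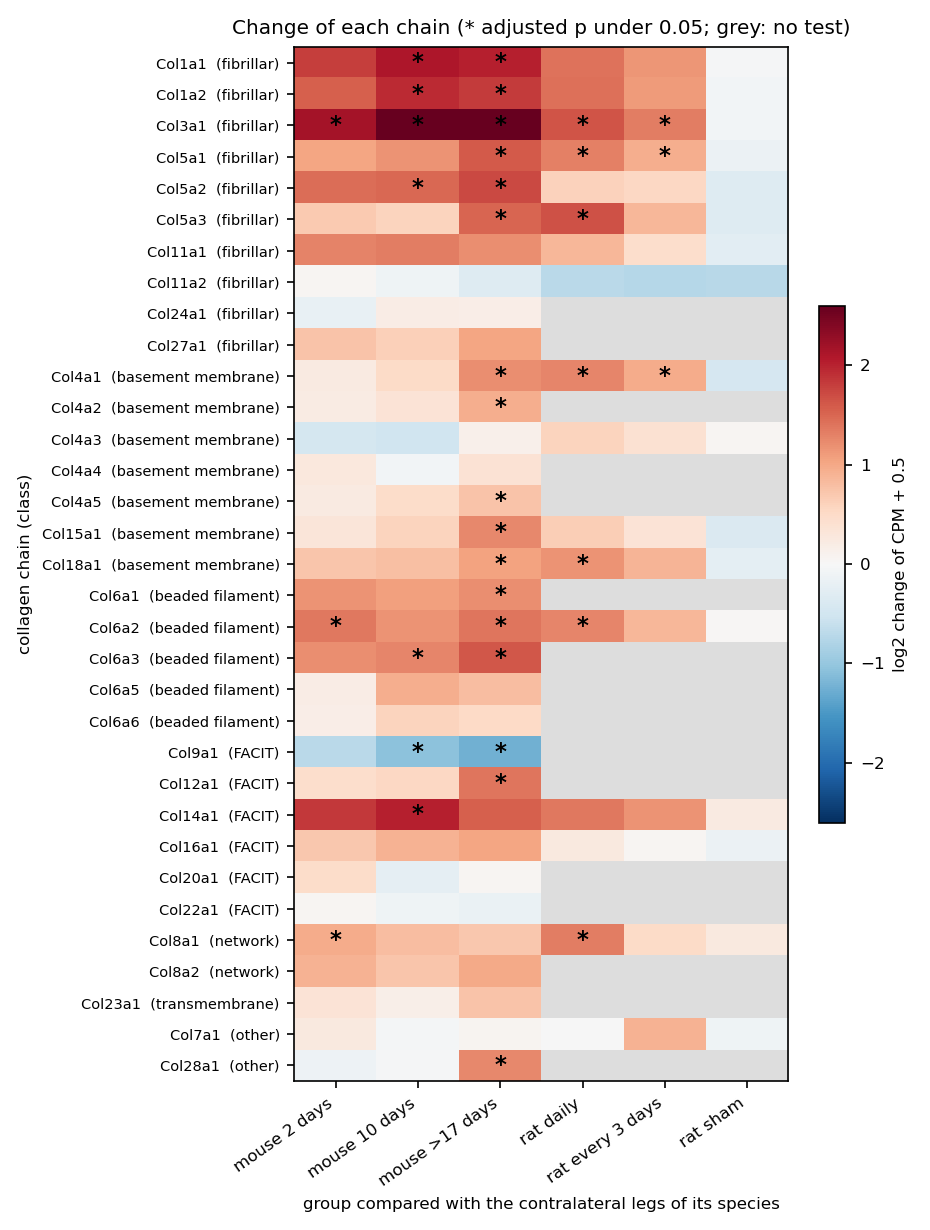
Log2 change of CPM + 0.5 for each tested collagen chain (rows, by class) in each group against the contralateral legs of its species (columns), on a scale where red is higher and blue is lower. Stars mark adjusted p under 0.05 (limma, Benjamini-Hochberg) and grey marks chains not tested in that species; fibrillar rows are red in all trained groups for most chains, basement membrane rows carry stars in mice only after over 17 days, and the sham column has no star.

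The largest change at each length of training in mice was that of Col3a1, the fibrillar chain of type III collagen. Col3a1 (ENSMUSG00000026043, chromosome 1, 45350698 to 45388867, GRCm39 as deposited) is common in young and repairing tissue. It had 375 and 317 CPM after 2 days, 1007, 317 and 311 CPM after 10 days and 1218, 303 and 267 CPM after over 17 days, against 38.1 to 167 CPM (median 62.0) in the 9 contralateral legs. Every trained leg was above every contralateral leg. The log2 changes were 2.16 ± 0.56, 2.58 ± 0.48 and 2.58 ± 0.48 (SE; limma adjusted p = 0.0218, 0.00269 and 0.00227), and with the animal as a block the 2-day p was 0.0655. The 2-day call also ended without leg TAL344 (adjusted p = 0.333).

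Col1a1 (ENSMUSG00000001506, chromosome 11, 94827050 to 94843869), the main chain of type I collagen, had 333 and 182 CPM after 2 days, 770.3, 201 and 177 CPM after 10 days and 903, 188 and 137 CPM after over 17 days, against 28.6 to 164 CPM (median 76.0) in contralateral legs. The 2-day and 10-day legs lay above all contralateral legs, and 1 leg of over 17 days, TAL349, lay within their range. Its log2 change was 1.80 ± 0.64 after 2 days (limma adjusted p = 0.0801), 2.10 ± 0.55 after 10 days (0.0282) and 2.01 ± 0.55 after over 17 days (0.0269). Col1a2 changed by 1.94 ± 0.47 after 10 days and 1.81 ± 0.47 after over 17 days (adjusted p = 0.0186 and 0.0209), with 362 and 273 CPM after 2 days, 949, 263 and 276 CPM after 10 days and 969, 262 and 208 CPM after over 17 days, against 52.5 to 227 CPM (median 107) in contralateral legs.

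The type I calls rested on the leg with the highest sum in each group. Without leg TAL340 the 10-day log2 change was 1.42 for Col1a1 and 1.33 for Col1a2 (limma adjusted p = 0.211 and 0.165), and without leg TAL341 the p for Col1a1 was 0.0536. Without leg TAL337 the change after over 17 days was 1.18 for Col1a1 and 1.13 for Col1a2 (adjusted p = 0.249 and 0.204). Type V chains, which help set the diameter of type I fibrils, were all 3 called in mice only after over 17 days. Col5a1, Col5a2 and Col5a3 then had log2 changes of 1.59 ± 0.36, 1.72 ± 0.40 and 1.51 ± 0.35 (limma adjusted p = 0.00927, 0.0115 and 0.0119), which fell to 0.98, 1.08 and 1.07 without leg TAL337 (adjusted p = 0.106, 0.127 and 0.121).

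Col5a1 had 35.2 and 34.7 CPM after 2 days, 67.5, 32.0 and 27.0 CPM after 10 days and 120, 35.2 and 32.6 CPM after over 17 days, against 10.4 to 28.9 CPM (median 16.1) in contralateral legs. Col5a2 had 43.1 and 39.1 CPM, 76.7, 32.03 and 31.7 CPM and 122, 32.9 and 30.9 CPM in the same groups, against 9.45 to 29.2 CPM (median 13.1), and every leg of over 17 days was above every contralateral leg for both chains. Col5a3 had 18.98 and 20.2 CPM, 27.7, 14.9 and 14.6 CPM and 64.2, 23.7 and 28.1 CPM, against 6.68 to 21.7 CPM (median 9.57), and again only the legs of over 17 days were all above the contralateral legs. At 10 days Col5a2 alone of the 3 was called, at 1.50 ± 0.40 (adjusted p = 0.0333; 0.0803 with the animal block). Leaving out any of 8 legs, 5 of them contralateral, ended that call, with a limma adjusted p of 0.0537 to 0.214 and the top value without leg TAL340. Of the remaining fibrillar chains tested in mice, Col11a1, Col11a2, Col24a1 and Col27a1, none was called in any group, and Col11a1 missed the threshold with log2 changes of 1.28 ± 0.45, 1.32 ± 0.39 and 1.20 ± 0.39 (limma adjusted p = 0.0792, 0.0524 and 0.0618). With median-of-ratios scaling Col11a1 passed at 10 days (0.0471) and Col27a1 after over 17 days (0.0405), and without mitochondrial genes both passed after over 17 days (0.0456 and 0.0316).

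Promoter windows are shown for the fibrillar chains with an entry and the largest changes, 250 bases before to 50 after the RefSeq start (GRCm38.p6). Capitals mark matches to 4 motifs searched on both strands at any position in the window. Whether a match is a working element was not tested. TATAAA, the TATA box motif, was in 13.6% of all 32851 windows and in 5 of the 38 windows of 35 collagen chains. CCAAT was in 37.4% of all windows and in 13 of the 38. GGGCGG, the GC box, was in 35.7% of all windows and in 23 of the 38. TGAGTCA, which the AP-1 transcription factor recognises, was in 5.20% of all windows and in 1 of the 38. Col1a2 lies on the forward strand at chr6:4505368-4505667 and Col3a1 on the forward strand at chr1:45311288-45311587.
Col1a2: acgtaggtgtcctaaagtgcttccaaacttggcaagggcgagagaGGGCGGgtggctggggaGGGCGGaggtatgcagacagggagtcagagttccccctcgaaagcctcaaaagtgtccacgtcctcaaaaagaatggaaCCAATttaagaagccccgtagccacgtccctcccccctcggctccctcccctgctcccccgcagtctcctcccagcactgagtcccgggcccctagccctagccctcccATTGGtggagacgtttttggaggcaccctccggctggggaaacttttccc
Col3a1: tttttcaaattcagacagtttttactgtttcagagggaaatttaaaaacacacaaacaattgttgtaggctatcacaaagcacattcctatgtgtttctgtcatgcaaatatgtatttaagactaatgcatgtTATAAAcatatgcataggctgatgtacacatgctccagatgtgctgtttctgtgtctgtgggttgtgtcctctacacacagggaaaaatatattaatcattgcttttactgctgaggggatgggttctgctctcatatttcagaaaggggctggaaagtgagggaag
The Col1a2 window held 2 matches to GGGCGG and 2 to CCAAT, and the Col3a1 window held 1 match to TATAAA. With the start as position 1, the CCAAT matches began at -109 and 1 and the TATAAA match at -117. Neither window held TGAGTCA.

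**Figure D3:**
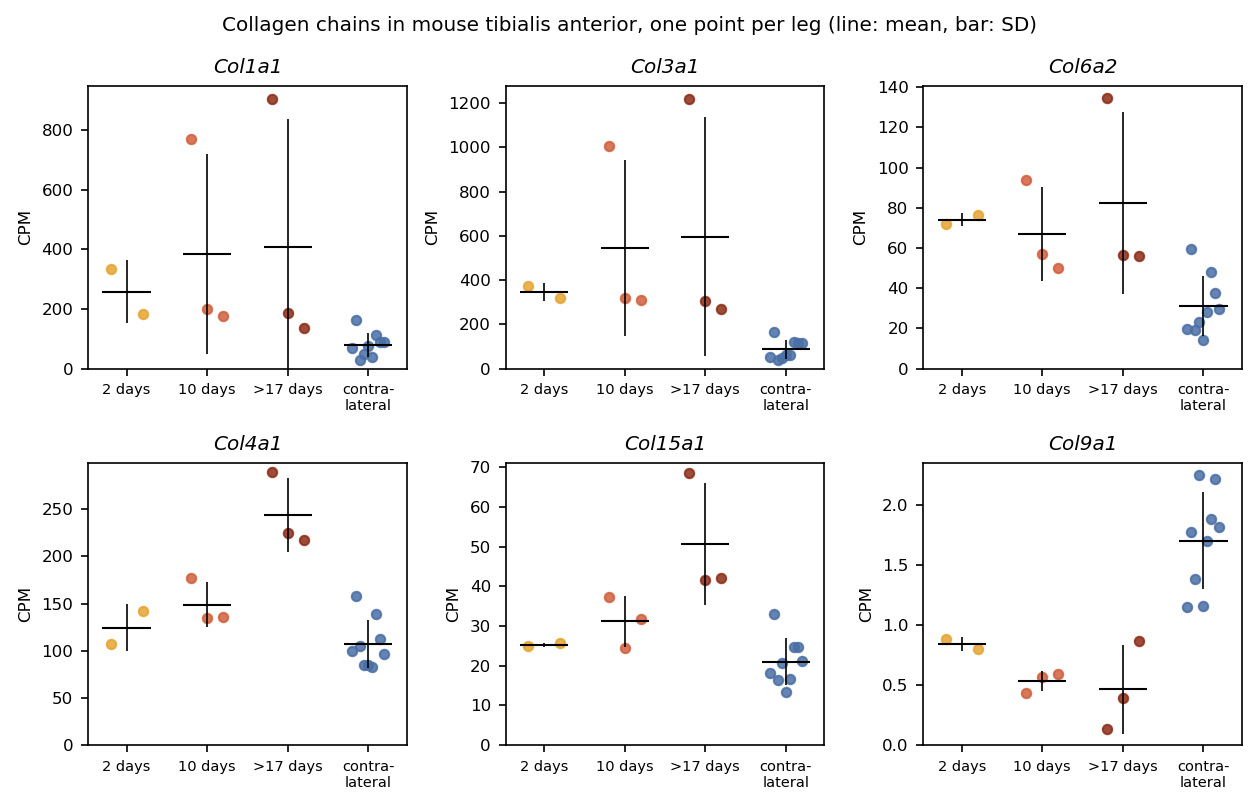
CPM of 6 chains in each mouse leg (points) by length of training, with contralateral legs at the right, the mean (line) and SD (bar). Col1a1, Col3a1 and Col6a2 are high in all trained groups with 1 leg far above at 10 days and at over 17 days, Col4a1 and Col15a1 separate from contralateral legs at over 17 days only, and Col9a1 is lower in every trained leg than in every contralateral leg.

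Basement membrane chains were not called after 2 or 10 days, and 5 of the 7 tested were called higher after over 17 days, beside 6.3% of all genes. Of these 5, Col4a5 entered testing only through trained legs, where it was high, so its call adds no support to that count. Col4a1 (ENSMUSG00000031502, chromosome 8, 11248423 to 11362827) and Col4a2 (ENSMUSG00000031503, 11362805 to 11499288) are the chains of the type IV network found in all basement membranes. Col4a1 had 107 and 142 CPM after 2 days, 177, 134 and 135 CPM after 10 days and 289, 224 and 218 CPM after over 17 days, against 83.1 to 158 CPM (median 99.95) in contralateral legs. Legs of 2 days lay within the contralateral range, and legs of over 17 days all lay above it. Col4a2 followed with 102 and 126 CPM, 137, 125 and 115 CPM and 228, 181 and 161 CPM in the same groups, against 78.6 to 147 CPM (median 91.7).

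After over 17 days the log2 change was 1.21 ± 0.17 for Col4a1 and 0.95 ± 0.16 for Col4a2 (limma adjusted p = 0.000309 and 0.0012), and neither call ended under any alternative tried. Set directly against 2 days, over 17 days gave 0.97 ± 0.24 for Col4a1 (adjusted p = 0.0717) and 0.73 ± 0.22 for Col4a2 (0.134). The call of Col4a1 in that comparison depended on the scaling, with 1.04 and a limma adjusted p of 0.0373 under median-of-ratios scaling and 0.0388 without mitochondrial genes. It was also made without contralateral leg TAR340 (0.0406) and, together with Col4a2, without leg TAL345 (0.0124 and 0.0390). The ratio of Col4a1 to Col4a2 CPM was 1.05 and 1.13 after 2 days, 1.08 to 1.29 after 10 days and 1.24 to 1.35 after over 17 days, against 0.971 to 1.15 in contralateral legs. The ratio after over 17 days thus lay above every contralateral leg.

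Col4a1 and Col4a2 lie head to head on opposite strands, and their gene models overlap by 23 bases as deposited. The labels do not say whether counting used strand, so reads in that overlap cannot be assigned by it. Their promoter windows (RefSeq, GRCm38.p6) overlap by 78 bases and are shown because the 2 chains moved together, with the same 4 motifs in capitals. Col4a1 lies on the reverse strand at chr8:11312777-11313076 and Col4a2 on the forward strand at chr8:11312555-11312854.
Col4a1: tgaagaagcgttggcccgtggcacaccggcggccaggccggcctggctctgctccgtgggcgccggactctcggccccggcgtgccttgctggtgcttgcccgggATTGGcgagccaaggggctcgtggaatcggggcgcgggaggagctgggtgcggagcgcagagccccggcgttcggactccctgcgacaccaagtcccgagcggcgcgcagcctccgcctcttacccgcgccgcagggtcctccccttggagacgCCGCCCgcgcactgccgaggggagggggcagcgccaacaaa
Col4a2: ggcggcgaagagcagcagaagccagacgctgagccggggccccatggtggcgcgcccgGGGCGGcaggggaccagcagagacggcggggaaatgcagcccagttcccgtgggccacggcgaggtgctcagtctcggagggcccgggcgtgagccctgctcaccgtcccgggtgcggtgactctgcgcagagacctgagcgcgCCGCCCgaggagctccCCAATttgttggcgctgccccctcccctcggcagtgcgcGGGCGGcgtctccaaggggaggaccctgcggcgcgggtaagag
The Col4a1 window held 1 match to CCAAT and 1 to GGGCGG, both on its reverse strand. The Col4a2 window held 1 match to CCAAT and 3 to GGGCGG, of which 1 is the match shared with Col4a1 in the overlap. The other 2 motifs were in neither window.

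Col15a1, the chain of a collagen that joins the basement membrane to the fibrils around it, had 24.9 and 25.6 CPM after 2 days, 37.3, 24.5 and 31.7 CPM after 10 days and 68.4, 41.7 and 42.0 CPM after over 17 days, against 13.5 to 33.1 CPM (median 20.7) in contralateral legs. The legs of over 17 days did not overlap with the contralateral legs. Its log2 change there was 1.26 ± 0.21 (limma adjusted p = 0.00115), a call kept in all alternatives. Col18a1, whose end fragment is endostatin, had 14.1 and 10.7 CPM after 2 days, 16.8, 9.92 and 12.6 CPM after 10 days and 34.3, 10.4 and 10.2 CPM after over 17 days, against 4.996 to 14.8 CPM (median 6.40). Its log2 change was 1.05 ± 0.31 (adjusted p = 0.0437), and without leg TAL337 it was 0.48 (0.378). The Col18a1 call ended without any of 10 legs, 8 of them contralateral. Col4a5, a chain of a second type IV network, changed by 0.73 ± 0.19 (adjusted p = 0.0233; 0.165 with the animal block, 0.133 without leg TAL337 and 0.0706 without leg TAL349). It had 1.03 and 0.798 CPM after 2 days, 1.73, 1.06 and 0.8294 CPM after 10 days and 1.82, 1.09 and 1.62 CPM after over 17 days, against 0.468 to 0.958 CPM in contralateral legs. Col4a5 reached 1 CPM only in trained legs, so it entered testing through the groups where it was high. Col4a3 and Col4a4, its partners in that network, were not called, with changes of 0.13 ± 0.19 and 0.37 ± 0.25. Over the trained mouse legs Col4a3 ran from 0.770 to 2.27 CPM and Col4a4 from 1.07 to 2.36 CPM, against 1.04 to 2.58 CPM and 0.580 to 2.77 CPM in contralateral legs.

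The type VI chains were called together after over 17 days. Col6a1, Col6a2 and Col6a3, which assemble into 1 molecule, changed by 1.21 ± 0.34, 1.40 ± 0.35 and 1.62 ± 0.33 on the log2 scale after over 17 days (limma adjusted p = 0.0335, 0.0177 and 0.0042). After 2 days the changes were 1.16 ± 0.40, 1.38 ± 0.41 and 1.20 ± 0.38, of which only that of Col6a2 was called (adjusted p = 0.0725, 0.0424 and 0.0545), and the Col6a2 call ended with the animal block (0.119) and without any of 9 legs (0.0516 to 0.387). After 10 days Col6a3 was called at 1.27 ± 0.33 (adjusted p = 0.0263; 0.175 without leg TAL340 and 0.0719 without leg TAL342), and the p was 0.0782 for Col6a1 and 0.0602 for Col6a2.

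Col6a2 had 71.9 and 76.3 CPM after 2 days, 93.6, 57.0 and 49.9 CPM after 10 days and 135, 56.6 and 56.1 CPM after over 17 days, against 14.1 to 59.7 CPM (median 28.2) in contralateral legs. Leg TAR340 set the top of that range, and both 2-day legs were above it. Col6a1 had 66.0 and 71.5 CPM, 95.2, 56.2 and 50.1 CPM and 131, 54.2 and 50.4 CPM in the same groups, against 17.9 to 59.1 CPM (median 26.2). Col6a3 had 75.3 and 74.2 CPM, 118, 61.0 and 67.3 CPM and 179, 72.7 and 77.8 CPM, against 17.9 to 64.7 CPM (median 28.8), and all its legs of 2 and of over 17 days were above the contralateral legs. The ratio of Col6a1 to Col6a2 stayed near 1, at 0.919 and 0.937 after 2 days, 0.986 to 1.02 after 10 days and 0.897 to 0.974 after over 17 days, against 0.928 to 1.27 in contralateral legs. Without leg TAL337 the calls of over 17 days ended for all 3 (adjusted p = 0.265, 0.162 and 0.0552 for Col6a1, Col6a2 and Col6a3), and that of Col6a1 also ended without any of 5 contralateral legs (0.05001 to 0.0548). Col6a5 and Col6a6, chains related to Col6a3, were tested and not called, at 0.133 to 1.78 CPM and 2.63 to 7.23 CPM over the trained legs, against 0.0312 to 0.320 CPM and 1.67 to 3.81 CPM in contralateral legs.

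Among the FACIT collagens, 1 chain fell. Col9a1 (ENSMUSG00000026147, chromosome 1, 24216691 to 24291766), best known from cartilage, had 0.882 and 0.798 CPM after 2 days, 0.438, 0.566 and 0.592 CPM after 10 days and 0.137, 0.389 and 0.864 CPM after over 17 days, against 1.15 to 2.25 CPM (median 1.78) in contralateral legs. All 8 trained legs were below all 9 contralateral legs. The chain reached 1 CPM only in the contralateral legs, so it entered testing through the group where it was high. The log2 change was -0.70 ± 0.25 after 2 days (limma adjusted p = 0.083), -1.08 ± 0.21 after 10 days (0.00484) and -1.24 ± 0.21 after over 17 days (0.00128), and the calls of 10 and over 17 days held in all alternatives. In rats Col9a1 lay at 0 to 0.254 CPM, under the limit for testing.

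Col14a1, a fibril-associated chain of tendon and muscle sheaths, was called higher at 10 days only. It had 19.1 and 13.4 CPM after 2 days, 37.5, 14.03 and 11.5 CPM after 10 days and 39.9, 10.4 and 5.26 CPM after over 17 days, against 1.79 to 19.99 CPM (median 3.33) in contralateral legs. The top of the contralateral range was leg TAR340, and the other 8 legs lay under 5.49 CPM or at it. The log2 change was 1.83 ± 0.66, 2.02 ± 0.56 and 1.56 ± 0.56 (adjusted p = 0.0818, 0.0408 and 0.0934 in limma), with 0.110 at 10 days under the animal block. The 10-day call ended without any of 10 legs, 7 of them contralateral, at 0.0558 to 0.224. Col12a1, a related chain that responds to load in cultured fibroblasts, was called only after over 17 days. It had 22.6 and 16.3 CPM after 2 days, 25.8, 15.1 and 22.01 CPM after 10 days and 59.9, 37.8 and 22.5 CPM after over 17 days, against 4.75 to 27.9 CPM (median 15.7) in contralateral legs. Its change of 1.39 ± 0.42 had a limma adjusted p of 0.0487, and of 0.230 with the animal block. The call ended without any of 12 legs, 7 of them contralateral, at a limma adjusted p of 0.0509 to 0.265. Col22a1, a chain found at the junction of muscle and tendon, had 21.3 and 14.5 CPM after 2 days, 21.2, 12.6 and 14.5 CPM after 10 days and 14.9, 12.4 and 18.4 CPM after over 17 days, against 12.5 to 25.00 CPM (median 18.1). It was not called in any comparison, and its log2 changes lay between -0.22 and 0.05. Col16a1 and Col20a1 were not called.

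Col8a1, a chain of the network-forming type VIII found around blood vessels, had 7.72 and 9.09 CPM after 2 days, 9.95, 8.37 and 5.07 CPM after 10 days and 11.2, 4.46 and 6.52 CPM after over 17 days, against 2.71 to 5.93 CPM (median 4.28) in contralateral legs. It was called at 2 days (log2 change 0.96 ± 0.28, limma adjusted p = 0.0389), and leaving out either trained leg (adjusted p = 0.291 without TAL344 and 0.118 without TAL345) or any of 6 contralateral legs ended the call. The log2 change of Col8a1 was 0.81 after 10 days and 0.69 after over 17 days (limma adjusted p = 0.0573 and 0.0816). It passed the threshold at 10 days with median-of-ratios scaling (0.0393) and after over 17 days without mitochondrial genes (0.0456). Col8a2, its partner, was not called, at 2.55 to 7.66 CPM over the trained legs, against 0.546 to 5.33 CPM in contralateral legs. Col28a1, a chain known from peripheral nerve, had 3.02, 2.13 and 1.87 CPM after over 17 days, against 0.289 to 1.31 CPM (median 0.603), with no overlap. Its log2 change was 1.26 ± 0.24 (adjusted p = 0.00318) and held in all alternatives, while the changes at 2 and 10 days were -0.13 ± 0.29 and -0.02 ± 0.24. Set against 2 days, over 17 days gave 1.39 ± 0.33 for Col28a1 (adjusted p = 0.06), which passed the threshold with median-of-ratios scaling (1.42, limma adjusted p = 0.0388), without mitochondrial genes (0.0454) and without leg TAL345 (0.0361). Schwann cell marker genes summed to 43.0 to 160 CPM after over 17 days, against 34.1 to 62.8 CPM in contralateral legs, none of 5 was called and none was at 0, and their part in the Col28a1 result was not tested.

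Over 17 days of training set directly against 2 days gave 0 called chains of 33 in limma, with 5 at an unadjusted p under 0.05, against 0.586% of all genes called in either direction. The median log2 change of the chains was 0.32, beside -0.05 for all genes. All 7 basement membrane chains had values above 0 in this comparison, and in 5 of them every leg of over 17 days was above both 2-day legs, an order that 9.25% of all genes also showed. With median-of-ratios scaling 2 chains were called in it, Col4a1 and Col28a1, as above.

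Own-leg changes, each trained leg against the right leg of the same mouse, spread widely. The median over the 33 chains was 0.71 and 0.16 in the 2 mice of 2 days, 0.40, 0.60 and 0.60 in those of 10 days and 1.66, 0.78 and 0.51 in those of over 17 days, on the log2 scale. Col3a1 was higher in the trained leg of all 8 mice with both legs, by 1.39 and 2.65, by 2.59 to 3.04 and by 1.21 to 4.51 on that scale. Col4a1 was also higher in all 8, by 0.04 and 0.36, by 0.16 to 0.66 and by 1.17 to 1.53.

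In rats after 30 days of training the same chains were compared with sham legs and with contralateral legs. All 5 trained legs against the 3 sham legs gave 9 of 17 chains called higher and 0 lower, against 7.32% of all genes called higher and 2.51% lower. The trained side was the mean of the 2 schedule means. Each daily leg therefore weighed more than each leg trained every 3 days. The median log2 change was 1.04, beside 0.08 for all genes. Daily training against contralateral legs gave 7 called higher, against 5.33% of all genes, and 0 lower, against 2.89%. Training every 3 days gave 3 higher, against 4.96%, and 0 lower, against 1.7%. The 2 schedules had medians of 1.28 and 0.87, beside 0.06 and 0.03 for all genes. Against sham legs the number called was 1 without sham leg TAL297, 5 without TAL294 and 4 with the animal as a block. With daily training it was 0 without TAL292, 3 without TAL294 and 2 with the block, and with training every 3 days it was 1 without TAL295, 5 without TAR296 and 6 with the block.

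Col4a1 had the smallest p of the rat chains in each of these comparisons. It had 352 and 244 CPM with daily training and 302, 207 and 212 CPM with training every 3 days, against 92.1, 75.1 and 102 CPM in sham legs and 95.3 to 157 CPM (median 119) in contralateral legs. No trained leg overlapped with a sham or a contralateral leg. The log2 change was 1.56 ± 0.17 for all trained against sham legs (limma adjusted p = 1.03e-05), 1.28 ± 0.19 for daily training against contralateral legs (0.000278) and 0.97 ± 0.16 for training every 3 days (0.000749). The daily call alone of these was lost under an alternative, at a limma adjusted p of 0.05002 without leg TAL292. Against sham legs Col15a1 and Col18a1 were called too, at 0.87 ± 0.22 and 1.27 ± 0.29 (adjusted p = 0.0176 and 0.00957). Without sham leg TAL297 their p was 0.124 and 0.0718, and Col15a1 also lost its call without TAL294 (0.0524) and without TAL296 (0.0704).

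Col15a1 had 75.0 and 85.6 CPM with daily training and 85.9, 50.3 and 66.7 CPM with training every 3 days, against 39.1, 31.3 and 50.3 CPM in sham legs and 36.4 to 68.8 CPM (median 51.9) in contralateral legs. Leg TAL298 of the trained rats and leg TAL300 of the sham rats had nearly the same value. Col18a1 had 20.3 and 21.1 CPM and 26.5, 14.5 and 12.5 CPM in the same trained groups, against 9.85, 5.84 and 7.22 CPM in sham legs and 4.90 to 14.7 CPM (median 8.33) in contralateral legs. All 5 trained legs were above all sham legs for Col18a1. The animal block took its p against sham legs to 0.0509. With daily training Col18a1 was called against contralateral legs at 1.16 ± 0.31 (limma adjusted p = 0.0276; 0.0799 with the block, 0.265 without TAL292 and 0.165 without TAL294).

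Among the rat fibrillar chains, Col3a1 had 832 and 732 CPM with daily training and 1311, 439 and 437 CPM with training every 3 days, against 331, 139 and 295.2 CPM in sham legs and 156 to 364 CPM (median 259) in contralateral legs. Every trained leg was above every sham and contralateral leg. Its log2 change was 1.56 ± 0.37 against sham legs, and 1.64 ± 0.40 for daily training and 1.34 ± 0.34 for training every 3 days against contralateral legs (limma adjusted p = 0.0122, 0.015 and 0.0225). With the animal block the p was 0.0750 against sham legs and 0.108 for daily training. The call against sham legs ended without sham leg TAL297 (0.107) and the daily call without either trained leg (0.247 and 0.0844). Without leg TAL295 the change with training every 3 days was 0.81 (adjusted p = 0.240).

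Col1a1 had 331 and 276 CPM with daily training and 567, 170 and 166 CPM with training every 3 days, against 159, 60.5 and 143 CPM in sham legs and 58.9 to 187 CPM (median 117) in contralateral legs. It was not called in rats, with a log2 change of 1.31 ± 0.43 against sham legs (limma adjusted p = 0.0609). With daily training against contralateral legs Col1a1 changed by 1.42 and Col1a2 by 1.44, both just over the threshold (limma adjusted p = 0.0659 and 0.0501). Both daily changes passed it without leg TAL295 (0.0296 and 0.0221), and with the animal block the p was 0.293 and 0.225. Col1a2 was called against sham legs at 1.34 ± 0.41 (adjusted p = 0.045; 0.121 with the animal block), and that call ended with median-of-ratios scaling (0.0641) and without any of 9 legs (0.0520 to 0.274). It had 306 and 252 CPM with daily training and 469, 148 and 156 CPM with training every 3 days, against 139, 53.8 and 125 CPM in sham legs and 58.2 to 164 CPM (median 109) in contralateral legs. Against sham legs Col5a1, Col5a2 and Col5a3 changed by 1.27 ± 0.30, 0.91 ± 0.27 and 1.59 ± 0.35 (adjusted p = 0.0106, 0.0374 and 0.0079), and with the animal block the p was 0.113 for Col5a1 and 0.160 for Col5a2. Without sham leg TAL297 all 3 calls ended (0.101, 0.211 and 0.0583), and that of Col5a2 ended without any of 6 legs and with median-of-ratios scaling (0.0590).

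Col5a1 had 34.5 and 29.1 CPM with daily training and 41.8, 18.4 and 19.6 CPM with training every 3 days, against 13.8, 6.85 and 15.1 CPM in sham legs and 9.21 to 18.1 CPM (median 12.3) in contralateral legs. It was called with daily training at 1.30 ± 0.32 (limma adjusted p = 0.0159) and every 3 days at 0.95 ± 0.27 (0.043), and with the animal block these p were 0.134 and 0.0845. The daily call ended without either trained leg (0.277 and 0.0760) and the other without any of 9 legs (0.0538 to 0.359) and with median-of-ratios scaling (0.0515). Col5a3 had 72.3 and 46.8 CPM and 68.4, 23.9 and 22.9 CPM in the trained groups, against 20.6, 11.2 and 12.6 CPM in sham legs and 12.3 to 30.8 CPM (median 16.1) in contralateral legs, and was called with daily training at 1.65 ± 0.38 (adjusted p = 0.0114; 0.0812 with the block and 0.312 without TAL292). Col5a2 had 65.4 and 51.7 CPM and 81.6, 40.2 and 52.6 CPM in the trained groups, against 29.0, 22.6 and 41.3 CPM in sham legs and 25.9 to 61.0 CPM (median 39.0) in contralateral legs. Trained and sham legs overlapped for Col5a2, through TAL298 and TAL300.

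**Figure D4:**
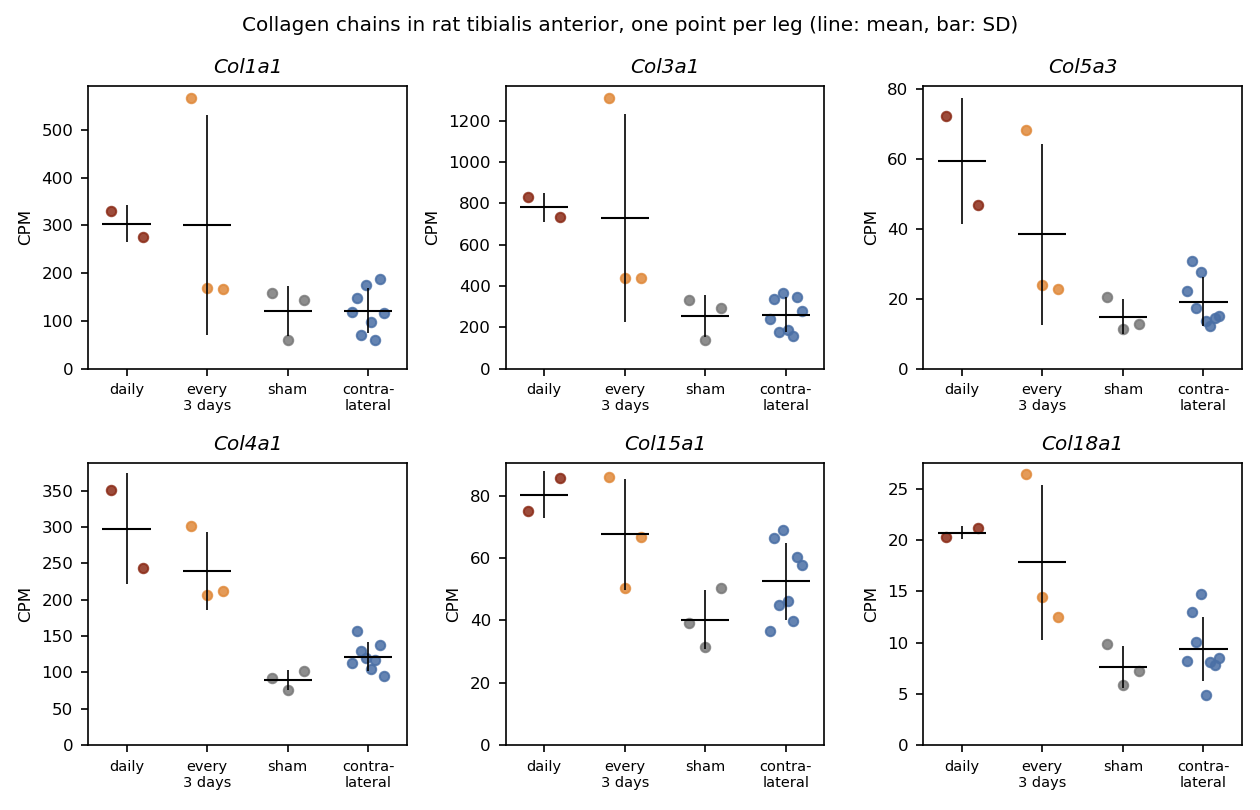
CPM of 6 chains in each rat leg (points) by training schedule, with sham and contralateral legs at the right, the mean (line) and SD (bar). Col4a1 is higher in all 5 trained legs than in every sham and contralateral leg, and 1 leg trained every 3 days lies far above its group for Col1a1, Col3a1 and Col5a3.

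Col6a2 had 106 and 95.8 CPM with daily training and 133, 53.5 and 61.0 CPM with training every 3 days, against 58.1, 30.0 and 42.9 CPM in sham legs and 21.1 to 56.1 CPM (median 41.9) in contralateral legs. It was called against sham legs at 1.04 ± 0.31 and with daily training against contralateral legs at 1.28 ± 0.33 (limma adjusted p = 0.0402 and 0.0231). The first call ended with median-of-ratios scaling (0.0517) and without any of 8 legs (0.0511 to 0.226), and the second without either trained leg (0.302 and 0.116). With training every 3 days its p was 0.0796, and 0.00429 with the animal block. Col8a1 had 3.45 and 2.88 CPM with daily training and 2.00, 0.886 and 2.01 CPM with training every 3 days, against 1.92, 0.634 and 1.39 CPM in sham legs and 0.683 to 1.15 CPM (median 0.970) in contralateral legs. It was called with daily training at 1.34 ± 0.28 (adjusted p = 0.00629; 0.0715 with the block and 0.175 without TAL292). Col14a1 had 29.5 and 20.8 CPM and 52.1, 12.7 and 14.8 CPM in the trained groups, against 16.9, 5.77 and 13.4 CPM in sham legs and 6.95 to 14.9 CPM (median 9.18) in contralateral legs, and was not called (adjusted p = 0.102, 0.0503 and 0.0584 against sham legs and for daily and 3-day training against contralateral legs). With the animal block Col5a3, Col14a1 and Col18a1 passed the threshold with training every 3 days (adjusted p = 0.0225, 0.0229 and 0.0307). Col4a3 was not called in rats, at 2.85 to 5.16 CPM over the trained legs, against 1.53 to 5.13 CPM over the sham and contralateral legs.

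Sham legs against contralateral legs gave 0 of 17 chains called in limma, with 2 at an unadjusted p under 0.05, and 0% of all genes called. The median log2 change of the chains was -0.14, beside -0.04 for all genes, and 4 of the 17 values were above 0. Daily training set against training every 3 days gave 0 of 17 called, with 1 at an unadjusted p under 0.05, beside 0.0869% of all genes. The median there was 0.29, beside 0.03 for all genes, and the chain with the smallest p was Col8a1 at 0.83 ± 0.33 (adjusted p = 0.719).

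Of the 17 chains tested in both species, 9 were called higher both in mice after over 17 days and in rats against sham legs: Col1a2, Col3a1, Col4a1, Col5a1, Col5a2, Col5a3, Col6a2, Col15a1 and Col18a1. That is 9 of the 10 called higher in mice among these 17, the exception being Col1a1, and 9 of the 9 called higher in rats. Of all 9432 symbols tested in both species, 2.98% were called higher in both. The log2 change was above 0 in both species for 16 of the 17, and that of Col11a2 was at or below 0 in both, with -0.34 ± 0.33 in mice. The species differ in length of training and in the legs compared with, and a difference between them was not tested.

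**Figure D5:**
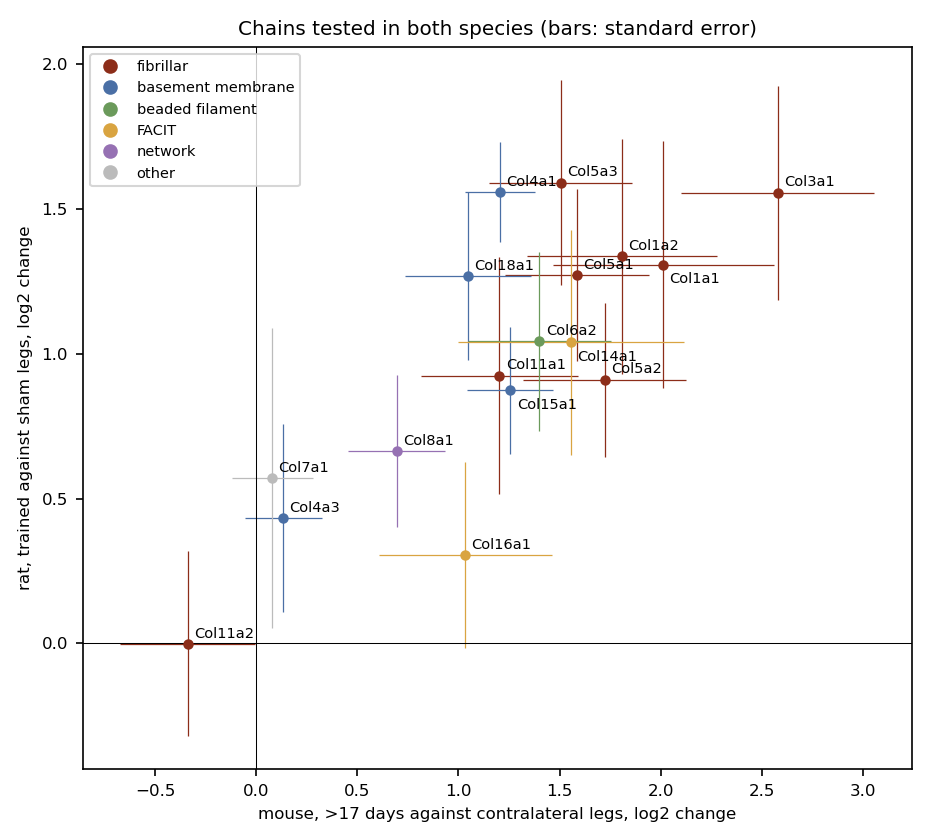
Log2 change of each of the 17 chains tested in both species, in mice after over 17 days against contralateral legs (horizontal axis) and in rats trained against sham (vertical axis), with standard errors as bars and colour by class. Of the points, 16 lie above 0 on both axes, with Col3a1 farthest to the right at 2.58 and Col5a3 and Col4a1 highest at 1.59 and 1.56.

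The balance of type III to type I was also set out by group, without a test. The ratio of Col3a1 to Col1a1 CPM was 1.13 and 1.74 after 2 days, 1.31 to 1.76 after 10 days and 1.35 to 1.95 after over 17 days in mice, against 0.785 to 1.48 (median 1.08) in contralateral legs, so the groups overlapped in part. In rats it was 2.52 and 2.65 with daily training and 2.31 to 2.63 with training every 3 days, against 2.07 to 2.29 in sham legs and 1.86 to 2.64 (median 2.19) in contralateral legs. All trained rat legs were above all sham legs and overlapped with the contralateral legs. The ratio of Col1a1 to Col1a2 was 0.642 to 0.932 over the trained mouse legs, against 0.545 to 0.733 in contralateral legs, and 1.06 to 1.21 over the trained rat legs, against 1.12 to 1.14 in sham and 1.01 to 1.23 in contralateral legs.

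Genes for the enzymes and chaperones of collagen synthesis were taken from a list fixed apart from the chains. Of 33 such genes tested in mice, 1 was called higher after 2 days, 1 higher and 1 lower after 10 days and 6 higher after over 17 days, beside 7.32% of all genes higher at 2 days, 3.61% higher and 1.92% lower at 10 days and 6.3% higher after over 17 days. Their median log2 changes were 0.49, 0.29 and 0.38, beside 0.11, 0.03 and 0.05 for all genes. The counts called higher at 2 and 10 days were not above the share of all genes. After over 17 days the 3 with the smallest p were Loxl2, a cross-linking oxidase, at 1.51 ± 0.29 (limma adjusted p = 0.00335), Plod2, which hydroxylates lysines for cross-links, at 1.04 ± 0.24 (0.0106), and Serpinh1, the collagen chaperone of the endoplasmic reticulum, at 0.80 ± 0.22 (0.0295). The gene called at 2 days was P4hb, a subunit of the prolyl hydroxylase, at 0.63 ± 0.14 (adjusted p = 0.00985). In rats 3 of 27 were called higher against sham legs, 3 with daily training and 2 with training every 3 days, beside 7.32, 5.33 and 4.96% of all genes. With so few genes called, these counts are not set apart from those shares. Serpinh1 was among the called genes each time, at 1.28 ± 0.22, 1.25 ± 0.23 and 0.76 ± 0.20 (limma adjusted p = 0.000848, 0.00238 and 0.0271). None of the 27 was called between sham and contralateral legs in limma.

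Of the collagen receptors, 10 tested in mice, 1 was called higher after 2 days, 0 after 10 days and 1 after over 17 days, beside 7.32, 3.61 and 6.3% of all genes, the called gene being Itgb1, the shared beta subunit of the collagen-binding integrins (log2 change 0.61 ± 0.17 and 0.49 ± 0.14; limma adjusted p = 0.0293 and 0.041). Of 7 tested in rats, 2 were called higher against sham legs, beside 7.32% of all genes, Itgb1 at 0.45 ± 0.12 and Ddr2, a receptor kinase activated by fibrillar collagen, at 1.17 ± 0.28 (adjusted p = 0.0212 and 0.0129). Daily training gave 1 of 7 and training every 3 days 2 of 7, beside 5.33 and 4.96% of all genes. With so few receptors, the counts of both species are not set apart from the shares of all genes.

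Marker genes of other cells were summed in each leg, and their part in the collagen results was not tested. Fibroblast and fibro-adipogenic markers, none at 0 in any mouse leg, summed to 748 and 785 CPM after 2 days, 815 to 1143 CPM after 10 days and 800 to 1210 CPM after over 17 days, against 420 to 1218 CPM in contralateral mouse legs. Every trained mouse leg thus lay within the contralateral range, while 4 of 11 markers were called higher after over 17 days, beside 6.3% of all genes. In rats they summed to 1324 and 1428 CPM with daily training and 566 to 1927 CPM with training every 3 days, against 286 to 597 CPM in sham and 318 to 742 CPM in contralateral legs, and 5 of 10 were called higher against sham, beside 7.32% of all genes. Macrophage markers summed to 131 and 299.3 CPM, 123 to 277 CPM and 71.2 to 772 CPM in mice after 2, 10 and over 17 days, against 41.9 to 199 CPM in contralateral legs, and leg TAL337 had the top value. Of 10 macrophage markers 2, 1 and 2 were called higher at these lengths, beside 7.32, 3.61 and 6.3% of all genes. In rats the macrophage sum was 72.8 and 82.7 CPM with daily training and 41.2 to 132 CPM with training every 3 days. Sham legs had 28.9 to 87.4 CPM and contralateral rat legs 24.8 to 70.8 CPM, so the rat groups overlapped. Tendon markers summed to 228 to 451 CPM over the trained mouse legs, against 103 to 520 CPM (median 174) in contralateral legs, with the top in leg TAR340, so these groups overlapped. Their median log2 change was 1.00, 0.91 and 0.80 after 2, 10 and over 17 days, beside 0.57, 0.61 and 0.72 for the fibroblast markers. Of 7 tendon markers 1 was called higher after 2 days, 1 after 10 days and 0 after over 17 days, beside 7.32, 3.61 and 6.3% of all genes. Muscle fibre markers summed to 125562 and 135185 CPM after 2 days, 128018 to 137067 CPM after 10 days and 100717 to 107584 CPM after over 17 days, against 111999 to 175009 CPM in contralateral mouse legs. The legs of over 17 days were below all contralateral legs, with 3 of 9 markers called lower, beside 2.48% of all genes. In rats the sum was 120732 and 131146 CPM with daily training and 148123 to 172038 CPM with training every 3 days, against 212187 to 268112 CPM in sham and 178602 to 234278 CPM in contralateral legs, with 3 of 9 called lower and 1 higher in trained against sham legs, beside 2.51% of all genes lower and 7.32% higher. All trained rat legs were below all sham and contralateral legs in that sum. Muscle fibre markers were above 0 in every leg of both species. Endothelial markers had a median log2 change of 0.17 in mice after over 17 days and 0.13 in trained against sham rats. None of these 8 was called in either comparison. The medians for 7 smooth muscle and pericyte markers were -0.001 and 0.35, with 0 and 1 called higher, beside 6.3 and 7.32% of all genes.

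The remaining chains under the limit for testing stayed low. In mice these 11 (Col2a1, Col4a6, Col6a4, Col9a2, Col9a3, Col10a1, Col13a1, Col17a1, Col19a1, Col25a1 and Col26a1) had a highest value of 1.37 CPM, for Col19a1 in leg TAL344. Col13a1, a transmembrane chain of the neuromuscular junction, ran from 0.182 to 1.17 CPM over all mouse legs, and Col25a1, a transmembrane chain needed for motor innervation in mice, from 0 to 0.412 CPM. In rats the 9 such chains had a highest value of 1.40 CPM, for Col23a1.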

How the data were processed

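The authors deposited CPM per gene with 0.0001 added to each value, as the values of the 2 tables show, and this offset was subtracted. Partek, DESeq2 and STAR 2.7.8a are named in the submitters' processing notes without their roles, which also list rn7 beside GRCm39 and mm10 as builds. Which step made the CPM is therefore not given. Per the labels' protocols, extraction used RNeasy columns after Trizol. Mouse coordinates are given as GRCm39, since 2.69% of 21295 gene IDs share their start with a GRCm38 annotation. The rat table's transcript models were summed per symbol (492 symbols had several), and in mice the more abundant row was kept for 21 symbols with several rows. Levels per kilobase used the longest protein-coding GENCODE transcript of each chain (GRCm38) in mice and the deposited model length in rats.

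Depth was estimated from the smallest steps between low values, of which 84.9 to 86.7% in mice and 85.2 to 87.5% in rats were whole multiples at a tolerance of 0.05, under the 95% needed, so no count test was run. The 13647 mouse and 10356 rat genes that reached 1 CPM in 2 or more libraries entered limma 3.58.1 (R 4.3.3) as log2(CPM + 0.5) values (linear model with all groups of a species, mean-variance trend, 2-sided, Benjamini-Hochberg over all genes tested, called at an adjusted p under 0.05), checked on simulated data. There were 9 comparisons. Errors are SD for levels and SE for log2 changes. Groups came from the labels. Left and right legs that share a number are from 1 animal, and the correlation of their deviations from group means over all genes was 0.12 to 0.30 in mice (-0.03 for legs TAL345 and TAR345) and 0.04 to 0.26 in rats. Over the collagen chains alone it spread more widely, from -0.33 to 0.53 in mice and from -0.41 to 0.75 in rats. This pairing entered only an alternative fit, with the animal as a block. Other alternatives were pseudocounts of 0.1 and 1, no filter, scaling by median of ratios, mitochondrial genes left out and each leg left out.

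Where tested, Col1a1, Col1a2, Col3a1, Col4a1, Col4a2, Col5a1, Col5a2, Col5a3, Col6a1, Col6a2, Col6a3, Col8a1, Col12a1, Col14a1, Col15a1, Col18a1 and Col22a1 are given leg by leg, as is every further chain called, and other chains by range or count. From the lists of synthesis genes and receptors at most 3 genes with the smallest adjusted p are named. The members and lists were chosen with earlier results of these data known. Promoter sequences are RefSeq's for GRCm38.p6 and are not in the coordinates of the deposited tables. Figures were drawn with matplotlib 3.10.9, and tables were handled with pandas 2.3.3 and numpy 2.4.6 in python 3.11.15 with scipy 1.17.1.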

Additional observations from a re-analysis of the deposited data

Results flagged for a closer look

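Of 50 groups of 4 to 10 legs searched for a leg far from the others, 2 held such a leg, and chance gives about 1 in 20. Col14a1 in mouse contralateral leg TAR340 was 19.99 CPM, against 1.79 to 5.49 CPM in the other 8 legs. Col11a1 in rat contralateral leg TAR294 was 2.471 CPM, against 0.155 to 0.642 CPM in the other 7.

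In some chains every animal of a group changed in a direction opposite to every animal of another group of its species, measured as left leg against own right leg on the log2 scale. All 33 mouse and 17 rat chains tested were searched over each pair of groups, and 8 such differences were found. With so few animals in a group, opposite directions also arise by chance. Whether 8 is more than chance gives was not tested, and the share over all genes was not counted. The 8 are therefore listed without a claim that the groups differ. In mice Col24a1 had a mean own-leg change of 0.39 after 10 days and -0.18 after 2 days, a difference of 0.5703. Col4a3 had a mean own-leg change of 0.24 after over 17 days, against -0.48 after 10 days and -0.42 after 2 days, differences of 0.7177 and 0.6581.

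In rats Col15a1 had a mean own-leg change of 0.70 with daily training and 0.47 with training every 3 days, against -0.52 in sham rats, differences of 1.219 and 0.9884. Col5a3 had 1.14 with daily training and 1.18 with training every 3 days, against -0.31 in sham rats, differences of 1.446 and 1.485. Col5a2 had 0.88 with daily training and -0.35 in sham rats, a difference of 1.233. These chains were picked on their own-leg changes. The fit with the animal as a block uses the same changes, so its p-values are no separate support. That fit covers such differences for over 17 against 2 days and for all trained against sham rats. There the difference was 0.66 for Col4a3 in mice (limma adjusted p = 0.671), and in rats it was 1.10 for Col15a1, 0.98 for Col5a2 and 1.47 for Col5a3 (0.0338, 0.160 and 0.0356). The other differences, with 10 days in mice and for each rat schedule alone, were not tested.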

How the results depend on the processing

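Across the alternatives, no log2 change of a called chain turned its direction. Of the calls, 0 of 3 at 2 days, 2 of 7 at 10 days, 6 of 17 after over 17 days, 1 of 9 in trained against sham rats, 0 of 7 with daily training and 1 of 3 with training every 3 days passed in all alternatives run. With both legs left out of the mice of legs TAL337 and TAL340, a choice made after seeing the data, 12 chains were called at 2 days and 10 after over 17 days, and with both legs left out of the rat of leg TAL295, likewise, 1 with training every 3 days. Without a filter 1 was called at 2 days. Scaling by median of ratios gave 11 at 10 days and 2 for over 17 against 2 days, and leaving out mitochondrial genes gave 2 there (Col4a1 and Col28a1 each time). The same scaling ended 3 calls in trained against sham rats and 1 with training every 3 days, given with those chains. Leaving out mitochondrial genes was not run in rats, whose table lists no such gene. Median-of-ratios scaling moved the share of all called genes that were higher to 52.6% from 75.3% at 2 days, to 57.6% from 71.8% after over 17 days and to 61.0% from 74.5% in trained against sham rats. Leaving out each leg in turn gave 0 to 11 called at 2 days, 2 to 14 at 10 days, 6 to 20 after over 17 days, 0 to 3 for over 17 against 2 days, 0 to 10 with daily training, 1 to 5 with training every 3 days and 1 to 10 in trained against sham rats, and 0 in the other 2 comparisons.

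With the animal as a block, the pairing of left and right legs gave 2 called with daily training, 6 with training every 3 days and 4 in trained against sham rats, and 2, 5 and 16 at 2, 10 and over 17 days in mice. Besides the changed calls given with each chain, the block brought Col11a1 at 2 days (limma adjusted p = 0.0423) and Col14a1 after over 17 days (0.0334) past the threshold, and it changed no other call. Where a leg left out leaves 1 leg in a group, that leg is taken to vary like the other groups. Values near 1 CPM in leg TAR299, the shallowest library, rest on few reads.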
